A study of Rattus norvegicus with 4 samples.

Results

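The ADAM and ADAMTS proteases were followed in TSPCs, the stem and progenitor cells that grow out of tendon in culture, here from rat, with and without a MEK inhibitor. Members were the rows whose gene name was Adam, Adamts or Adamtsl followed by a number, with 1 optional closing letter for the Adam genes. The rule found 50 genes among 32623 in the table: 26 ADAMs, 19 ADAMTSs and 5 ADAMTS-like genes. RNA was sequenced in 4 libraries, 2 from control cells given DMSO, the solvent, and 2 from cells given U0126, which blocks the MEK kinases that activate ERK. All were rat tendon TSPCs. The labels give no dose, exposure time, strain, sex, age or animal, so a p-value reflects nothing but the spread among the 4 libraries, which may be technical.

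ADAMs are membrane-anchored metalloproteases. The active ones shed growth factors, cytokine receptors and Notch receptors from the cell surface, while others lack a working active site and serve adhesion or, in the testis, fertilization. ADAMTSs are secreted relatives with thrombospondin repeats that bind matrix. One class, the aggrecanases, cuts aggrecan and versican, another trims the N-propeptides of fibrillar procollagens, and ADAMTS-like proteins keep the matrix-binding repeats without the protease. In tendon these enzymes take part in collagen maturation and proteoglycan turnover.

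Library totals lay between 36888913 and 42785190 counts. Among the tendon and stem/progenitor markers, Scx, Tnc and Thy1 were detected, with control means of 12 ± 0.262, 3334 ± 322 and 1502 ± 104 CPM (SD, n = 2), whereas Tnmd, a marker of mature tendon cells, was near 0 (0.0826 ± 0.0456 CPM). Of the 8 tested markers of this list, 2 fell with U0126 (Tnc 2.91-fold and Thy1 1.66-fold) and 2 rose (Scx 1.70-fold and Nt5e 2.06-fold). The list summed to 5002 and 5306 CPM in the controls and to 2241 and 2473 CPM with U0126, most of it from Tnc and Thy1. The median log2 fold change of the 8 tested markers was 0.49. The 3 chondrocyte markers summed to 1814 and 2048 CPM in the controls and to 699 and 912 CPM with U0126, where Acan fell 2.42-fold, Col2a1 rose 15.6-fold from a control level of 0.168 ± 0.0230 CPM, and Sox9 did not pass. CPM here are counts scaled to library size, with TMM factors that correct for composition. The leukocyte marker Ptprc and the endothelial markers Cdh5 and Tie1 had 0 counts in the 4 libraries. The 4 leukocyte markers summed to 1.77 and 1.17 CPM in the controls and to 0.659 and 0.497 CPM with U0126, and 1 of the 3 tested (Adgre1) fell. The 3 endothelial markers summed to at most 0.0527 CPM in any library. S100b, a Schwann cell marker, rose 3.31-fold from 9.94 ± 3.92 to 32.8 ± 11.6 CPM (edgeR adjusted p = 0.0105). The part of these cells in the changes below was not tested, and in bulk RNA fewer cells of a type and less RNA per cell cannot be told apart.

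Many of the family's tested members differed between the U0126 and control libraries, more of them upward than downward. Of the 50 members, 27 had enough counts to be tested. With U0126, 10 rose (Adamts15, Adamtsl3, Adamts8, Adamtsl1, Adam1a, Adamts12, Adam33, Adamts9, Adamts10 and Adamtsl5) and 4 fell (Adam19, Adam12, Adamts14 and Adamts7) by edgeR's quasi-likelihood test at an adjusted p under 0.05. That is 51.9% of the tested members called, beside 19.9% of all 14023 genes tested. The called-higher share was 37.0% against 8.41% over all genes. The called-lower share, 14.8% against 11.5%, was near that over all genes. The median log2 fold change over the 27 was 0.16, with 0.02 over all genes tested. The U0126 values lay wholly above or below the controls for 21 of the 27 (77.8%), while 62.8% of all genes tested showed such a separation. A member that passed the count filter through 1 group had to differ, so these shares describe the tested members, not all 50.

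The number of calls depended on which libraries were used. It was 5 higher and 2 lower without control replicate 1, and 6 higher and 3 lower without control replicate 2. It was 10 and 7 without U0126 replicate 1, and 12 and 5 without U0126 replicate 2. Calls over all genes moved alongside, from 2792 with all libraries to 913, 899, 3277 and 4644 in the same order. The calls of Adam19, Adam12, Adam33, Adamts8, Adamts12, Adamts15 and Adamtsl3 were kept in the 11 alternatives run for each. Adam33 was only just under the threshold without control replicate 1 or 2 (log2 fold change 0.87 and 0.88).

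**Figure D1:**
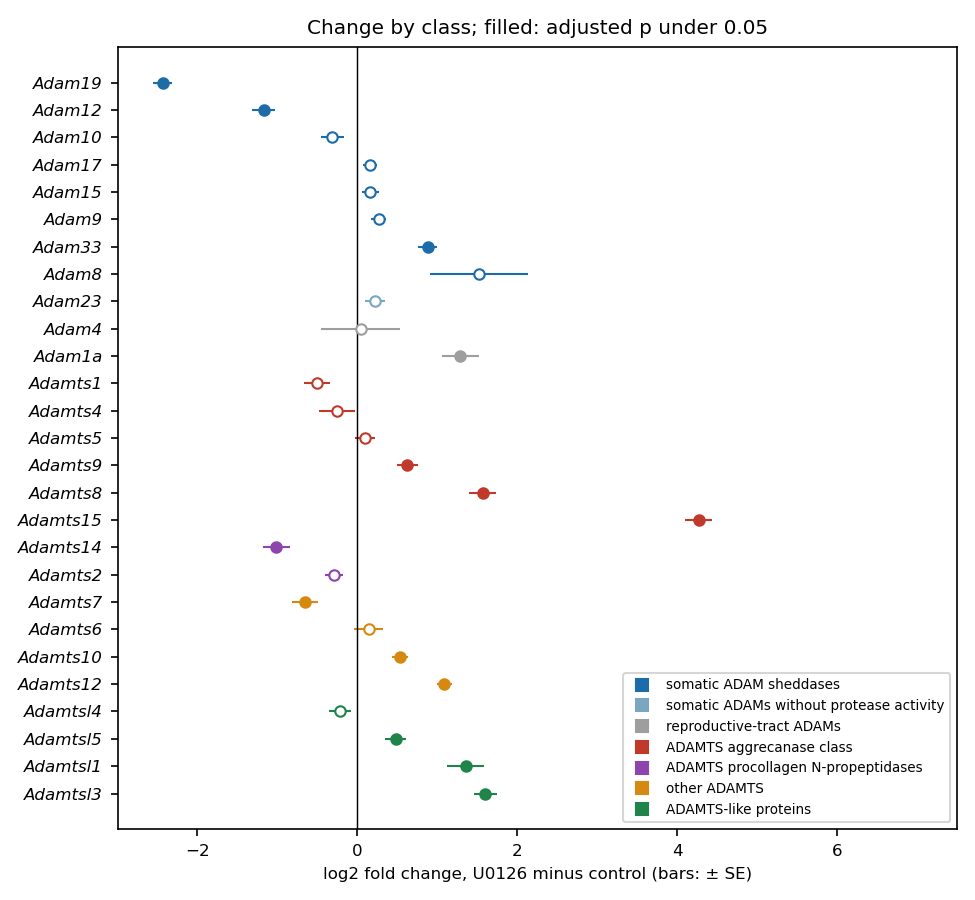
Log2 fold change of U0126 against control (x axis; bars, SE from edgeR; 2 libraries per group) for the 27 tested members, coloured by class, with filled points where the adjusted p was under 0.05. Adamts15 stands at 4.27 on the right and Adam19 at -2.43 on the left, and the aggrecanase class holds both risers and members near 0.

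In the controls, transcript levels per length ran over several orders of magnitude and were led by Adamts1. Its deposited TPM, a measure of transcripts scaled by gene length, was 591 ± 18.9 in the controls and 399 ± 103 with U0126 (SD, n = 2), the highest of the 27 in both groups. The sheddases Adam12 (133 ± 8.90 TPM) and Adam19 (119 ± 5.14 TPM) came next in the controls, followed by Adam15 (71.9 ± 5.79 TPM). Adamts10, Adam17 and Adamts12, at 52.5 ± 3.08, 52.1 ± 1.06 and 51.1 ± 5.02 TPM, did not differ beyond their spread. With U0126 the order below Adamts1 was Adamts12 (104 ± 1.03 TPM), Adam15 (77.1 ± 8.91 TPM), Adamts10 (71.3 ± 5.85 TPM), Adam12 (56.5 ± 12.2 TPM) and Adam17 (55.8 ± 0.382 TPM). The ranges of Adam15 and Adamts10 overlapped, as did those of Adam12 and Adam17. Adam19 moved from place 3 to place 13 of 27, and Adamtsl3 from place 14 to place 7.

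**Figure D2:**
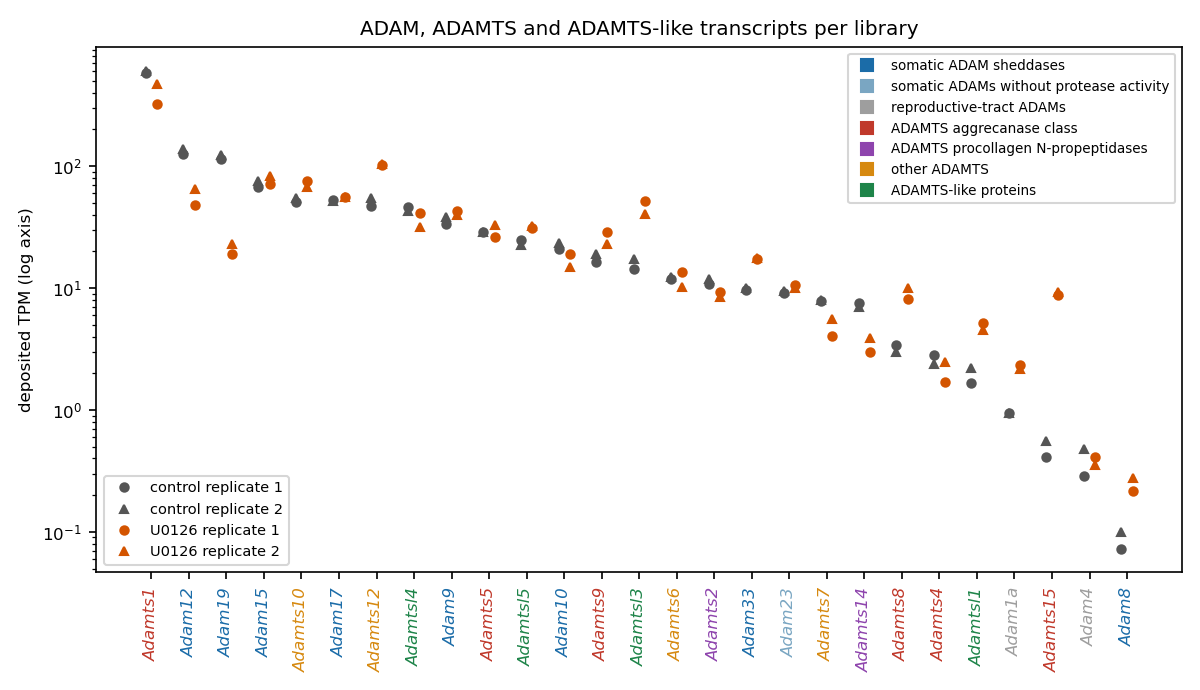
Deposited TPM on a log axis for the 27 tested members in each of the 4 libraries (grey, control; orange, U0126; circles, replicate 1; triangles, replicate 2), in order of the control mean, with gene names coloured by class. Adam19 and Adamts15 show the widest gaps between the groups, and Adamts1 is highest in every library.

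Summed over the family, the deposited TPM was 1289 and 1363 in the controls and 1023 and 1173 with U0126. The sheddases supplied 33.1% and 33.8% of that sum in the controls and 26.6% and 25.6% with U0126. Adamts1 alone supplied 44.8% and 44.3% in the controls, and 31.8% and 40.3% with U0126. The other ADAMTS genes went from 9.14% and 9.53% to 19.2% and 16.0%, and the ADAMTS-like genes from 6.75% and 6.21% to 12.6% and 9.32%. For both of these classes and for the sheddases, the U0126 libraries lay on one side of the controls, and these sums were not tested.

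**Figure D3:**
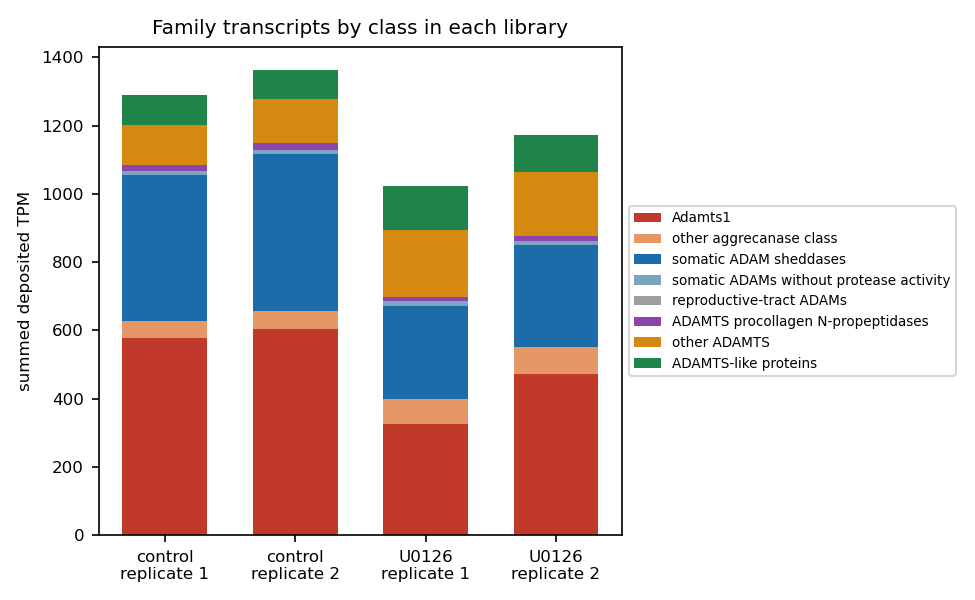
Summed deposited TPM of the 50 members in each library (bars from 0), divided into Adamts1, the rest of the aggrecanase class and the other classes. Adamts1 and the sheddases take a smaller share, and the other ADAMTS and ADAMTS-like genes a larger one, in the U0126 libraries.

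Among the 8 tested membrane sheddases, 2 abundant members fell and 1 less abundant member rose. That is 25% called lower and 12.5% higher, beside 11.5% and 8.41% of all genes tested. Adam19 (meltrin beta), a sheddase of neuregulins on chromosome 10 (31146107 to 31240582, rn6, plus strand), had 409.9 and 419.9 CPM in the controls and 69.5 and 84.0 CPM with U0126. This 5.41-fold fall was the family's largest (log2 fold change -2.43 ± 0.12 SE, edgeR adjusted p = 1.07e-04). Adam12 (meltrin alpha), which sheds EGF receptor ligands (chromosome 1, 205956342 to 206282575, rn6, minus strand), had 213.9 and 226.6 CPM in the controls and 83.3 and 112 CPM with U0126. It fell 2.25-fold (log2 fold change -1.17 ± 0.14 SE, edgeR adjusted p = 0.00214). The groups were apart for both genes, and the gap was wider than the difference between replicates. Adam33, a sheddase of mesenchymal cells, had 13 and 13.1 CPM in the controls and 23.9 and 24.1 CPM with U0126. It rose 1.84-fold (log2 fold change 0.88 ± 0.12 SE, edgeR adjusted p = 0.00279), with replicates nearly equal in each group.

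ADAM12 and ADAM19 are also known from myoblasts. The 4 skeletal myoblast markers summed to 12.3 and 9.60 CPM in the controls and 2.72 and 3.42 CPM with U0126. The 3 of them that were tested, Myod1, Cdh15 and Des, fell, and Myf5 had 0 counts in both controls. Their part in the falls of Adam12 and Adam19 was not tested.

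The general sheddases did not pass the test. Adam10, the main Notch and cadherin sheddase, had 44.4 and 47.9 CPM in the controls and 42.0 and 32.4 CPM with U0126. Its log2 fold change was -0.31 (95% interval -0.64 to 0.02). Adam17, the TNF and EGF ligand sheddase, had 122 and 115 CPM in the controls and 132 and 132 CPM with U0126, with an interval of -0.05 to 0.36 on the log2 scale. Adam15, the sheddase with the highest deposited TPM under U0126, had 109.8 and 119 CPM in the controls and 118 and 138 CPM with U0126, so its groups overlapped. Adam9 had 59.1 and 64.5 CPM in the controls and 77.3 and 71.3 CPM with U0126 (edgeR adjusted p = 0.104). Adam8, a leukocyte sheddase, was near the detection limit, with 5 and 7 control counts against 14 and 17 under U0126, and did not pass either (edgeR adjusted p = 0.132). Adam28 had 0 counts. With U0126 replicate 1 left out, Adam10 passed as lower (edgeR adjusted p = 0.00674, up to 0.561 in other alternatives), and without U0126 replicate 2, Adam9 passed as higher (0.0315, up to 0.532).

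The ADAMs outside the sheddases were mostly silent. Of 14 reproductive-tract ADAMs, 12 had 0 counts in the 4 libraries and 2 were tested. Adam1a, a fertilin gene known from sperm, had 1.61 and 1.54 CPM in the controls and 4.03 and 3.67 CPM with U0126. It rose 2.44-fold at this low level (log2 fold change 1.29 ± 0.24 SE, edgeR adjusted p = 0.00995). Adam4 had 16 and 29 control counts against 23 and 18 under U0126, with overlapping groups. Of the 3 protease-inactive ADAMs of other tissues, Adam23, an adhesion receptor, had 14.7 and 14.8 CPM in the controls and 17.8 and 16.6 CPM with U0126 (log2 fold change 0.22, 95% interval -0.07 to 0.51). Adam11 and Adam22 had 11 and 16 counts in all and were not tested. Leaving out control replicate 1 or 2 ended the Adam1a call (log2 fold change 1.32 and 1.25). Its lowest adjusted p over the alternatives was 0.00302, with DESeq2.

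In the aggrecanase class, 3 members rose and the 3 others tested did not pass. The called-higher share was thus 50%, beside 8.41% of all genes tested. Adamts15, an aggrecanase and versicanase on chromosome 8 (31977001 to 32000378, rn6, minus strand), had 1.44 and 1.86 CPM in the controls and 31.3 and 32.6 CPM with U0126. The log2 fold change was 4.27 ± 0.17 SE, the highest in the family (edgeR adjusted p = 1.07e-04). Adamts8, an aggrecanase with anti-angiogenic repeats, had 5.82 and 4.92 CPM in the controls and 14.3 and 17.5 CPM with U0126. It rose 2.96-fold (log2 fold change 1.57 ± 0.17 SE, edgeR adjusted p = 0.00137). Both genes lie side by side on chromosome 8, 18.2 kb apart on opposite strands in the deposited rn6 positions. Adamts9, a versicanase (chromosome 4, 124660262 to 124858250, rn6, minus strand), had 73.9 and 82.2 CPM in the controls and 135 and 106 CPM with U0126. It rose 1.54-fold (log2 fold change 0.62 ± 0.13 SE, edgeR adjusted p = 0.0180). Adamts9 was no longer called when control replicate 1 or 2 was left out (edgeR adjusted p = 0.165 and 0.0934, down to 2.78e-04 in other alternatives).

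The 3 aggrecanases that did not pass were Adamts1, Adamts5 and Adamts4. Adamts1 (chromosome 11, 25342126 to 25350974, rn6, minus strand), a versicanase with anti-angiogenic repeats, had 1441 and 1453 CPM in the controls and 838 and 1199 CPM with U0126. Both U0126 libraries were below both controls, but they differed from each other by more than the upper one differed from the controls. The log2 fold change was -0.51 (95% interval -0.89 to -0.12, edgeR adjusted p = 0.0710). Adamts1 was called lower when U0126 replicate 2 was left out (edgeR adjusted p = 3.13e-04) and with DESeq2 (DESeq2 adjusted p = 0.0117), and its adjusted p reached 0.263 over the alternatives run. Adamts5, the main aggrecanase of mouse cartilage, lies 60 kb from Adamts1 on the same strand. It had 51.5 and 50.2 CPM in the controls and 48.3 and 60.6 CPM with U0126, with overlapping groups (95% interval of the log2 fold change -0.20 to 0.39). Adamts4, the other classical aggrecanase, had 9.08 and 7.35 CPM in the controls and 5.59 and 8.15 CPM with U0126, also overlapping. Adamts20 had 4 counts in all.

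The procollagen N-propeptidases, which trim the amino-terminal propeptides of fibrillar collagens, had 2 tested members. Adamts14 (chromosome 20, 30812353 to 30888751, rn6, minus strand) had 20.1 and 17.9 CPM in the controls and 8.20 and 10.6 CPM with U0126. It fell 2.02-fold (log2 fold change -1.01 ± 0.17 SE, edgeR adjusted p = 0.00666). Adamts2, the more abundant of the pair per length (11.3 ± 0.761 TPM in the controls), had 37.3 and 39.7 CPM in the controls and 33.2 and 29.7 CPM with U0126. It did not pass, although its groups were apart (log2 fold change -0.29, edgeR adjusted p = 0.103). Adamts3 had 0 counts in the 4 libraries. Adamts14 was no longer called when control replicate 1 was left out (log2 fold change -0.93). Its lowest adjusted p over the alternatives was 1.38e-05, with DESeq2. With U0126 replicate 1 left out, Adamts2 was called lower (edgeR adjusted p = 0.0315, up to 0.506 in other alternatives).

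Of the 9 other ADAMTSs, 4 were tested, 2 rose and 1 fell. These are 50% and 25% of so few genes, beside 8.41% higher and 11.5% lower over all genes tested. Adamts12, which with Adamts7 is known to cut COMP (chromosome 2, 61039053 to 61340697, rn6, plus strand), had 232 and 257 CPM in the controls and 518 and 519 CPM with U0126. It rose 2.12-fold (log2 fold change 1.09 ± 0.09 SE, edgeR adjusted p = 5.07e-04). Adamts7 (chromosome 8, 97535777 to 97575655, rn6, plus strand) had 23.7 and 22.8 CPM in the controls and 12.5 and 16.9 CPM with U0126. It fell 1.58-fold (log2 fold change -0.66 ± 0.16 SE, edgeR adjusted p = 0.0308). The pair thus changed in opposite directions. Adamts10, a fibrillin-binding protein, had 107 and 113 CPM in the controls and 169 and 149 CPM with U0126 and rose 1.45-fold (edgeR adjusted p = 0.0106). Its relative Adamts6 had 16.8 and 17.9 CPM in the controls and 22.6 and 15.6 CPM with U0126, with overlapping groups. Adamts6 was called higher when U0126 replicate 2 was left out (edgeR adjusted p = 0.0451, up to 0.884 in other alternatives).

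Without control replicate 1 or 2, edgeR no longer called Adamts7 (log2 fold change -0.64 and -0.69) or Adamts10 (0.50 and 0.58). The Adamts12 call was kept without either. With DESeq2 on all 4 libraries, Adamts10 had its lowest adjusted p over the alternatives (1.12e-04). Adamts16 had 0 counts in both controls and 14 and 4 with U0126. The pooled U0126 level was 6.73-fold above a floor of 3 counts over the controls. No counting error was allowed for the U0126 counts, so this is not a lower bound. Adamts16 was not tested. Adamts17 had 34 counts and Adamts19 25 in all, below the filter, and Adamts13 and Adamts18 had 0.

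The ADAMTS-like genes encode non-catalytic matrix proteins that bind fibrillin microfibrils in several cases, and 3 of the 4 tested rose. This is 75% called higher, beside 8.41% of all genes tested. Adamtsl3 (punctin 2; chromosome 1, 144239020 to 144561247, rn6, plus strand) had 60.4 and 70.5 CPM in the controls and 224 and 173 CPM with U0126. It rose 3.03-fold (log2 fold change 1.60 ± 0.15 SE, edgeR adjusted p = 6.44e-04). Adamtsl1 (punctin) had 2.45 and 3.26 CPM in the controls and 8.22 and 6.38 CPM with U0126 and rose 2.55-fold (edgeR adjusted p = 0.00781). Adamtsl5, a microfibril-binding protein, had 14.7 and 12.9 CPM in the controls and 18.9 and 19.5 CPM with U0126 and rose 1.39-fold (edgeR adjusted p = 0.0419). Adamtsl4, needed for the fibres that hold the eye lens, had 108 and 96.1 CPM in the controls and 98.9 and 76.4 CPM with U0126. Its groups overlapped and it did not pass (log2 fold change -0.22 ± 0.14 SE). Adamtsl2 had 4 counts in all. The median log2 fold change of the 4 was 0.92, beside 0.02 over all genes tested.

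The Adamtsl3 call was kept with any 1 library left out. That of Adamtsl1 did not survive leaving out control replicate 1 (log2 fold change 1.16), and its lowest adjusted p over the alternatives was 1.22e-04, with DESeq2. That of Adamtsl5 did not survive leaving out control replicate 1 or 2 (edgeR adjusted p = 0.164 and 0.354), scaling by library totals alone (0.0612) or testing with no count filter (0.0521), and its adjusted p went down to 0.0254 over the alternatives run. Adamtsl4 was called lower when U0126 replicate 1 was left out (edgeR adjusted p = 0.0149, up to 0.752 in other alternatives).

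**Figure D4:**
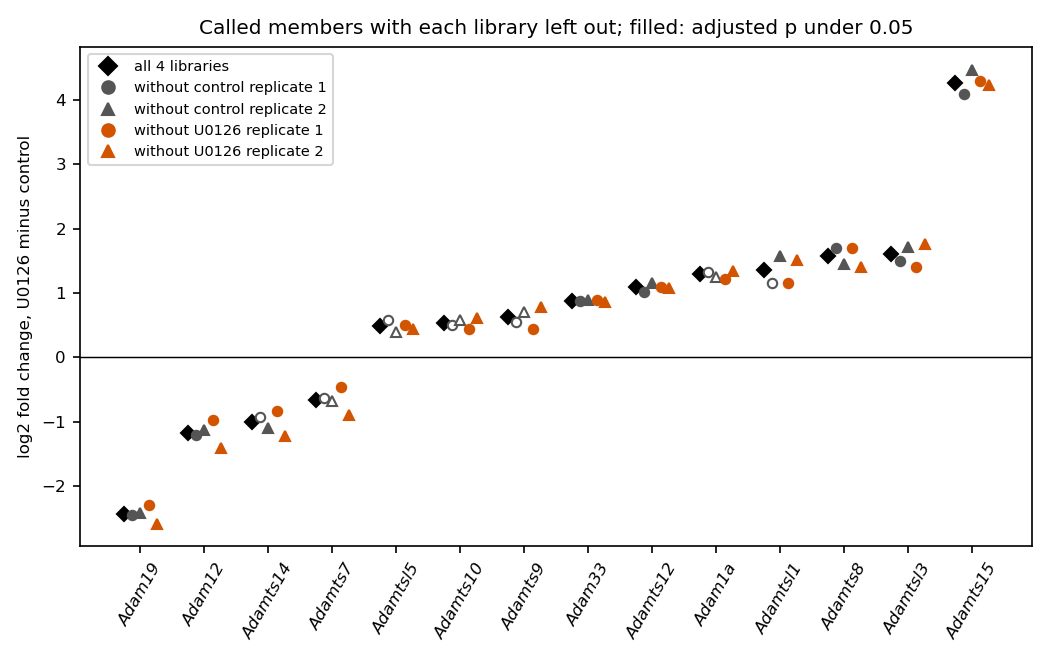
Log2 fold change of U0126 against control for the 14 called members, with all 4 libraries (black) and with each library left out (grey, a control; orange, a U0126 library); open points have an edgeR adjusted p of 0.05 or more. The sign of each is the same throughout, and the open points are the fits without a control library.

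Promoter sequences were looked at because AP-1 and ETS factors are textbook targets of ERK. RefSeq promoters (build GRCr8, 250 bases before to 50 after a gene's start) were matched by symbol for 32 of the 50 members, among them 11 of the 14 called. The called members Adamts15, Adamts8 and Adam33 had no promoter sequence, so the shares below leave them out. The other 11 called members had 14 promoter entries, because Adamtsl1 has several, some of which overlap. The AP-1 letters TGANTCA were found in 1 of these 14 entries (7.14%) and in 7.33% of 33469 promoters of all genes. The ETS letters CCGGAA were found in 2 of 14 (14.3%) and in 15% of all. The match in Adamtsl1 was at the far edge of an entry. An overlapping entry starts inside the same match and so does not count it, and the gene's entries elsewhere had none. Both strands were searched, and the motifs share no letters in these matches. The shares were near the background. The 250 bases before the start are given for both fallen sheddases and for Adamtsl3, a riser with an ETS match, 5′ to 3′ on the gene's strand with matches in capitals.
Adam19 promoter, chr10:30992511-30992760, plus strand: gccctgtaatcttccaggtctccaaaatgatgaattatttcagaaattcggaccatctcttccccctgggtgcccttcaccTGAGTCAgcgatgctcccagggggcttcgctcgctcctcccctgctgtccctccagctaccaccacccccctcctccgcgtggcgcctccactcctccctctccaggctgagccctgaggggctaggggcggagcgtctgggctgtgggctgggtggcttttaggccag
Adam12 promoter, chr1:198443681-198443930, minus strand: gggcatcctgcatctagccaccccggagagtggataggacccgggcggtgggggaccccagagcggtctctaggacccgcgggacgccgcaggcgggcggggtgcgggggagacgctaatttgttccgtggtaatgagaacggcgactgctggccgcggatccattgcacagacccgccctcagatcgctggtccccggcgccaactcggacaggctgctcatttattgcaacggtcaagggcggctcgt
Adamtsl3 promoter, chr1:145697754-145698003, plus strand: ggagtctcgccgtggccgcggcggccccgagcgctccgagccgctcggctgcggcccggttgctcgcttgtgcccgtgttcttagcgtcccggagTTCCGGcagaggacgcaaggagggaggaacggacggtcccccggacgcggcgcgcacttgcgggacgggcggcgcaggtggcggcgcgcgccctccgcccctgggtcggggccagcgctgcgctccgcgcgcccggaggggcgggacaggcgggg
The AP-1 match in Adam19 begins 169 bases before the start, and the ETS match in Adamtsl3, on the opposite strand, 155 bases before it. The Adam12 stretch has neither set of letters. A match is a description of letters, not of a bound site.

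Genes that work with the family were taken from 5 lists, and 25 of the 55 tested (45.5%) were called, beside 19.9% of all genes. The called-higher share was 36.4% against 8.41% over all genes, and the called-lower share 9.09% against 11.5%. Of 5 metalloproteinase inhibitors, 2 rose (40%) and 1 fell (20%). Timp3, the TIMP known to block ADAM17 and the aggrecanases, rose 2.36-fold from 6.06 ± 0.587 to 14.3 ± 1.23 CPM (SD, n = 2; edgeR adjusted p = 0.00233). Timp2 rose 1.29-fold, and Timp1 fell 1.57-fold from 545 ± 91.3 to 347 ± 22.9 CPM. Timp1 was no longer called when control replicate 1 was left out (edgeR adjusted p = 0.121, down to 3.19e-05 in other alternatives), nor Timp2 when either control was (0.203 and 0.194, down to 0.00206).

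Of 7 tested sheddase partners, the iRhoms with their binding protein and the tetraspanins that escort ADAM17 and ADAM10, 0 rose and 1 fell. That is 14.3% called, no more than the 19.9% over all genes. Tspan5, an ADAM10 partner, fell 1.45-fold from 47.3 ± 4.28 to 32.6 ± 1.34 CPM (edgeR adjusted p = 0.0144). Tspan17 had 37.0 ± 2.67 and 29.3 ± 1.12 CPM (edgeR adjusted p = 0.0680), and Rhbdf2, iRhom2, 23.3 ± 2.55 and 33.1 ± 11.2 CPM (0.155). Tspan5 was no longer called when either control was left out (edgeR adjusted p = 0.0740 and 0.201, down to 0.00131 in other alternatives). Tspan17 was called lower when U0126 replicate 2 was left out (edgeR adjusted p = 0.0257) and with library totals alone (0.0433), and was at up to 0.450 in others. Rhbdf2 was called higher when U0126 replicate 1 was left out (edgeR adjusted p = 9.78e-04, up to 0.559 in others).

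Of 8 genes of maturation and clearance, 4 rose (50%, beside 8.41% of all genes) and 0 fell. The proprotein convertases Pcsk5 and Pcsk6, of the enzyme family that removes prodomains, rose 6.55-fold (4.75 ± 0.300 to 31.1 ± 9.14 CPM) and 3.29-fold (25.2 ± 0.317 to 82.9 ± 4.54 CPM), with edgeR adjusted p-values of 4.30e-04 and 1.46e-04. Furin, the convertase most often tied to ADAM activation, did not pass (181 ± 4.67 and 159 ± 16.4 CPM, edgeR adjusted p = 0.252). B3glct, which completes the sugar on thrombospondin repeats, rose 1.37-fold, and Lrp1, the receptor that clears ADAMTSs, 1.36-fold. Furin and Lrp1 were named after their values were seen. B3glct was no longer called when either control was left out (edgeR adjusted p = 0.200 and 0.252, down to 0.00211 in other alternatives).

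Of 15 tested matrix substrates, 6 rose (40%, beside 8.41% of all genes) and 2 fell (13.3%, near the 11.5% of all genes). Versican (Vcan), an aggrecanase substrate, fell 2.48-fold from 256 ± 5.83 to 103 ± 6.81 CPM (edgeR adjusted p = 2.70e-04), and aggrecan (Acan), named after its values were seen and also one of the chondrocyte markers above, 2.42-fold. Comp, the substrate of Adamts7 and Adamts12, rose 8.42-fold from 1.57 ± 0.152 to 13.3 ± 4.41 CPM (edgeR adjusted p = 5.96e-04). Fibromodulin (Fmod), a small proteoglycan that binds collagen, rose 2.41-fold. Of 20 tested membrane substrates, 8 rose (40%) and 1 fell (5%, below the 11.5% of all genes). Nrg1, a neuregulin, rose 1.95-fold from 12.1 ± 0.886 to 23.7 ± 3.30 CPM (edgeR adjusted p = 0.00476), and the adhesion molecule Vcam1 1.99-fold. The receptor kinase Axl fell 1.90-fold from 566 ± 19.1 to 298 ± 59.1 CPM (edgeR adjusted p = 0.00458). Nrg1 was no longer called when control replicate 1 was left out (edgeR adjusted p = 0.0653, down to 4.64e-06 in other alternatives), nor Vcam1 when either control was (0.0809 and 0.0753, down to 1.87e-04).

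**Figure D5:**
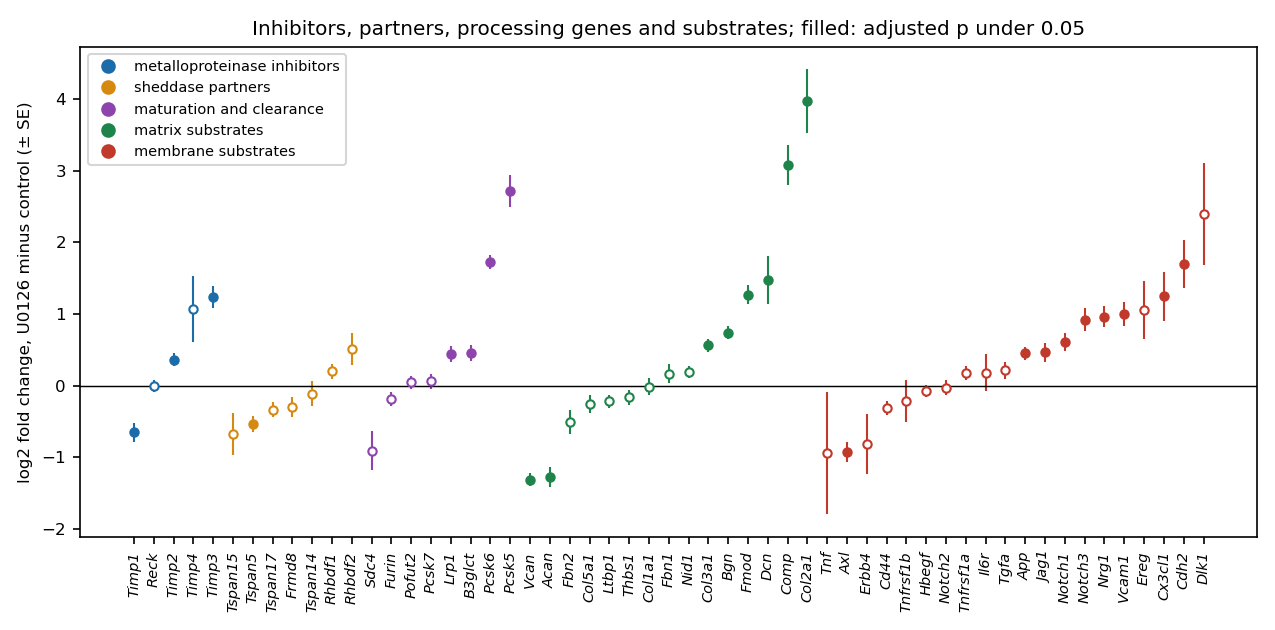
Log2 fold change of U0126 against control (points; bars, SE from edgeR; 2 libraries per group) for the 55 tested genes of the 5 lists, coloured by list, with filled points where the adjusted p was under 0.05. The convertases Pcsk5 and Pcsk6 lie above the other maturation genes, and Vcan and Acan lie below the other matrix substrates.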

How the data were processed

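Per the labels' protocols, RNA came from Trizol extracts and went into Illumina libraries. The genome build rn6 comes from the submitters' processing notes. Not given in the sources used here were the aligner, counter, strand setting and annotation, so reads of overlapping or near-identical genes cannot be checked. The authors deposited whole-number counts, TPM and FPKM per gene and library, per the file headers. The deposited counts were tested. The deposited TPM values were used for levels between genes, and for ranks, sums and shares set side by side between groups. They carry no TMM factor and were not tested. The deposited FPKM values were not used. Column headers and sample descriptions share a letter and number, which gave each column its sample and left 0 unmatched.

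Genes passing edgeR's filterByExpr (minimum count 10, minimum total 15) were scaled by TMM and compared by the quasi-likelihood F test (two-sided, Benjamini-Hochberg over all 14023 genes tested, threshold 0.05). The tools were edgeR 4.0.16, DESeq2 1.42.0 and limma 3.58.1 under R 4.3.3. A lowest or highest adjusted p over alternatives was taken over edgeR, DESeq2 and limma-voom fits together. A prior count of 0.125 enters edgeR's log2 fold changes, and the SE is the absolute log2 fold change over the square root of F. A library with 0 counts allows up to 3 counts, between 0.0689 and 0.0829 CPM; floors cover counting error only. Counts of this comparison were simulated with 13832 genes tested and 200 changed, the latter drawn from genes with a mean of at least 1 CPM. There the test recovered 79% of 2-fold and 97% of 4-fold changes, and 4.35% of its calls were false. Far fewer genes were changed there than the 2792 called here, so these rates may not carry over to the data. Recovery at lower levels was not simulated.

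The members, classes and lists were chosen with earlier results of these data known. Given per library were the members past the threshold and the most abundant tested member of each class, with other tested members added, and up to 3 genes of each related list by smallest adjusted p. The list markers Itgam and Pecam1 were not found under these symbols. One list marker is not reported here. A planned look at the zinc-binding signature in the members' proteins was not run.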

Additional observations from a re-analysis of the deposited data

How the results depend on the processing

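With 2 libraries per group, leaving out 1 library leaves a lone library that is assumed to vary like the other group. Over the fits that left out 1 library, all genes called ranged from 899 to 4644, family members called higher from 5 to 12 and lower from 2 to 7, and related genes called higher from 8 to 25 and lower from 3 to 13. By class, the sheddases called higher ranged from 1 to 2, the reproductive-tract ADAMs called higher from 0 to 1 and the aggrecanases called lower from 0 to 1. The procollagen N-propeptidases called lower ranged from 0 to 2, the other ADAMTSs called higher from 1 to 3 and lower from 0 to 1, and the ADAMTS-like genes called higher from 1 to 3 and lower from 0 to 1. Fewer samples enter these fits, and calls over all genes fell without a control library and rose without a U0126 library. The cause was not tested. DESeq2 called 1 aggrecanase (Adamts1) lower, against 0 in edgeR. With RLE factors, library totals alone, no filter, a stricter filter (1 CPM in 2 libraries), DESeq2 or limma-voom, 13 to 15 family members were called, and at least 13 of the 14 main calls were kept.

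Replicate numbers are shared by the groups, but the labels tie them to no animal or day. The replicate differences of the groups correlated at -0.02 across 14023 genes, so the numbers were not taken to pair the libraries. With the replicate number as a block, edgeR called 2371 genes and 14 family members. Under the block Adamts1 was called lower (edgeR adjusted p = 0.0368), which made 1 aggrecanase lower, and Adamtsl5 was not called (0.0651). Low counts limit what can be said of Adam8, Adam4 and the 7 members with counts that were not tested.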
